A study of Homo sapiens and Mus musculus with 10 samples.

Results

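The AP-1 family comprises transcription factors that bind DNA as pairs held together by a leucine zipper. The 10 genes described here were FOS, FOSB, FOSL1 and FOSL2 of the FOS group, JUN, JUNB and JUND of the JUN group, and the related genes BATF, BATF3 and ATF3. They were chosen by name, as 10 of the 19962 protein-coding genes of the autosomes and X in GENCODE release 44, and all 10 were found there. Peaks of accessible chromatin were listed within 1 kb of any annotated start site of each gene (promoter peaks) and within 100 kb of each gene body, and were set beside the use of AP-1 sites across the genome.

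The peaks came from bulk short-read ATAC-seq, which marks accessible chromatin by where the Tn5 transposase inserts adapters. Each of 4 human cell lines had 2 libraries. GM12878 consists of B lymphoblastoid cells immortalised by Epstein-Barr virus. HEK293T derives from embryonic kidney and expresses large T antigen of SV40, HFF1 is made of fibroblasts from foreskin, and K562 is an erythroleukaemia line with the BCR-ABL1 fusion. No treatment, induced gene or edited allele is named for any line, all 4 were grown in medium with serum (the culture protocol spells K562 as K526) and thawed from frozen cells before nuclei were taken, and each line stands for its cell type through 1 origin only. The series also holds mouse embryonic stem cell libraries, which were not analysed here.

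FOS proteins cannot pair with themselves and need a JUN partner, whereas JUN proteins also pair with each other and with ATF proteins. FOS-JUN pairs prefer the AP-1 site TGACTCA, which reads TGAGTCA on the other strand, and JUN-ATF pairs prefer the longer cyclic AMP response element (CRE) TGACGTCA. FOS, FOSB, JUN, JUNB and ATF3 are textbook immediate early genes, transcribed within minutes of serum or stress signals that act through MAP kinases and, at FOS, through the serum response factor. BATF proteins lack the activation domain of FOS and act in lymphoid and myeloid cells with IRF4 or IRF8 on composite sites.

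Some of the promoters carry sites of the kind the family itself binds. Among the matched RefSeq promoters, only that of FOSL2 held an AP-1 site and only that of JUND a CRE. JUN, and ATF3 at its first start, had the similar string TGACATCA. FOS and FOSB had the 6-base core TGACGT, and BATF and JUNB none of these. Sequences from 6 promoters are printed because later results turn on them. The first 3 are RefSeq promoters on GRCh38.p14, from 250 bases before to 20 bases after the start, written 5′ to 3′ on the gene's strand: JUN at chr1:58784028-58784297 on the minus strand, JUND at chr19:18281603-18281872 on the minus strand and FOSL2 at chr2:28392608-28392877 on the plus strand. Capitals mark TGACATCA in JUN, the CRE TGACGTCA and the reversed 6-base core ACGTCA in JUND, and the core TGACGT and the AP-1 site in FOSL2.
JUN promoter: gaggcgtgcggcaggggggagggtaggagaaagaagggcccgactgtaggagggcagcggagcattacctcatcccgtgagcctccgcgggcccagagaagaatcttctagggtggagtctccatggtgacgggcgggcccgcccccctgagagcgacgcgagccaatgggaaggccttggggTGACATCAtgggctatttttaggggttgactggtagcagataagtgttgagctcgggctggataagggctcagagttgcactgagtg
JUND promoter: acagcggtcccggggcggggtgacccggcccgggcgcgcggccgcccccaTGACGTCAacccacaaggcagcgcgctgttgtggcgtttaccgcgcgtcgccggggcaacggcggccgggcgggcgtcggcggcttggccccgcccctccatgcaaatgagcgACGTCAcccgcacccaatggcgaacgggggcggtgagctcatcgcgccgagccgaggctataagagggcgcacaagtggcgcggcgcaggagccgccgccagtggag
FOSL2 promoter: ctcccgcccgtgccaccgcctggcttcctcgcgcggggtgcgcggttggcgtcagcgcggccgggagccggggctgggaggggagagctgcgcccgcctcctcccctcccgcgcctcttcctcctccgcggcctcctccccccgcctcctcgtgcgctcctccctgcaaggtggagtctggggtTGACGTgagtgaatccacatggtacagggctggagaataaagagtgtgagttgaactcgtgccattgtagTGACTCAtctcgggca
The other 3 are windows reaching 50 bp to either side of a summit (summit windows below), read from the GRCh38 reference on the plus strand: FOS at chr14:75278456-75278556, FOSB at chr19:45467669-45467769 and BATF at chr14:75522388-75522488. Capitals mark the serum response core (CC, then 6 A or T, then GG) in FOS and FOSB, the CRE in FOSB, and a RUNX site (TGTGGTT, here on the other strand) in BATF.
FOS summit: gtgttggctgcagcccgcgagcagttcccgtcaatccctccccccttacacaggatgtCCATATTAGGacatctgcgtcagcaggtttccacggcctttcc
FOSB summit: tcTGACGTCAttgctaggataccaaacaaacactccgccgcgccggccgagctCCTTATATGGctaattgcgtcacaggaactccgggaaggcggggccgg
BATF summit: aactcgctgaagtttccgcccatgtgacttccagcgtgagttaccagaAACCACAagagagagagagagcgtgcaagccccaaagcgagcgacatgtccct
Each match is a string of letters and not a measured binding site. Searched on both strands, the AP-1 site was in 4.95% of 35116 RefSeq promoters of 300 bases, the CRE in 1.85%, TGACATCA in 2.61% and the core TGACGT, which is part of the CRE, in 7.98%. RefSeq entries were matched for 8 of the 10 genes, and no entry was matched for FOSL1 or BATF3.

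The libraries differed in depth by line. The background level recovered from the peak lists, in reads per window and proportional to depth, was 0.465 and 0.466 in HEK293T and 1.71 to 2.43 in the other 6 libraries, and HEK293T had 52137 and 52438 peaks against 71241 to 127359. Depth and line cannot be told apart in this design, so the promoter calls, the mean peak counts around each gene and the genome-wide AP-1 site shares are also given for equally long lists of the 45000 peaks of highest −log10 p. The counts of nearby peaks with an AP-1 site and of regions found in 1 line are not. Promoter peaks at marker genes matched the line labels in part: CD79A, CD79B and MS4A1 had one in GM12878 only, GATA1, TAL1 and HBE1 in K562 only, COL3A1 in both libraries of HFF1 only, and PAX2 and LHX1 in HEK293T only. HBG1 had none in any library, PAX8 had none in HEK293T, TWIST2 had one in 1 HEK293T library besides HFF1, and COL1A1 and COL1A2 had them in 7 or 8 libraries. The labels do not say that the 2 libraries of a line came from separate cultures, so each p-value measures only the spread between these libraries.

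Accessible promoters were found in all 8 libraries at 9 of the genes, and at BATF in GM12878 alone. In both libraries of GM12878, 10 of 10 AP-1 genes had a promoter peak, beside 71.9% of all protein-coding genes. The number was 9 of 10 in HEK293T (67.8% of all genes), 9 of 10 in HFF1 (76.2%) and 9 of 10 in K562 (70.4%). The same 9 genes had a peak in all 8 libraries, as did 59.7% of all genes. BATF, which pairs with JUN proteins and is known for its role in B and T cell differentiation, had a promoter peak in the 2 GM12878 libraries and in none of the other 6. The outcome was the same with windows of 500 bp or 2 kb and with start sites of protein-coding transcripts only. No test was run on presence.

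**Figure D1:**
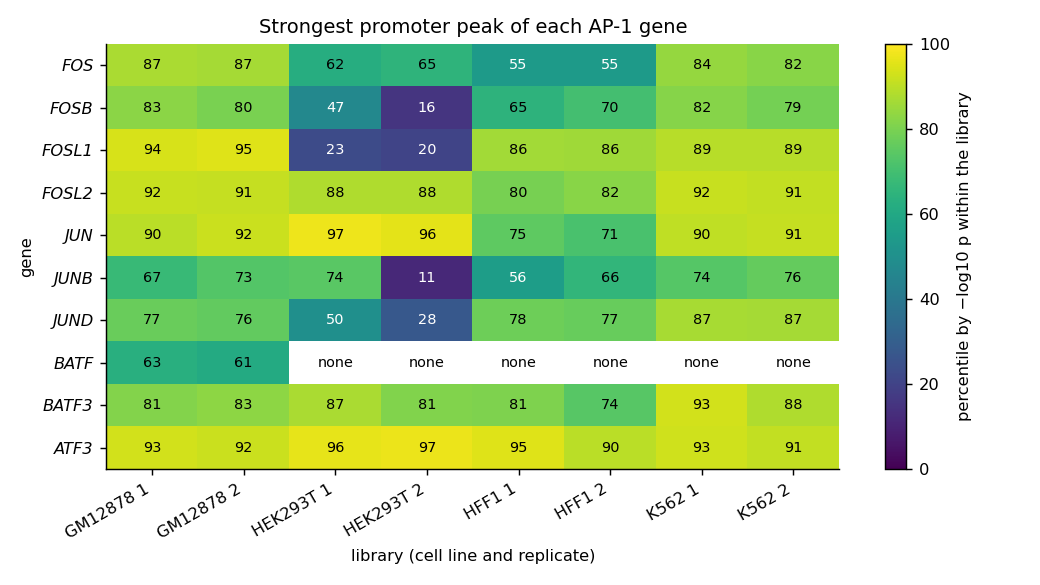
Percentile by −log10 p of the strongest promoter peak of each AP-1 gene (rows) within each of the 8 libraries (columns), from 0 to 100, with "none" where no peak lay within 1 kb of a start site. BATF is blank outside GM12878, ATF3 lies between 89.7 and 96.9 in every library, and FOSL1 lies at 22.7 and 20.4 in the HEK293T libraries.

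The strength of a promoter peak is described by the fold over local background and by its percentile within its own list, ranked by −log10 p. The fold is the authors' value and the percentile ranks their −log10 p. Both describe a peak within its own list, and since lists of different length do not share a scale, no order of the lines is read from them. Over the genes with a promoter peak, the median percentile of the AP-1 genes was 85.1 and 84.7 in GM12878, where that of all genes was 90.8 in both libraries. It was 74.3 and 65.0 against 82.6 and 82.4 in HEK293T, 77.9 and 73.9 against 90.3 and 90.1 in HFF1, and 89.2 and 88.0 against 89.9 and 89.0 in K562. The family's promoter peaks thus ranked by their median below that of all genes in all 8 libraries.

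FOS, the founding partner of JUN in the AP-1 pair, had 1 accessible stretch, chr14:75278232-75279147, from 594 bp before to 321 bp after its first start site. The strongest peak had a fold of 7.08 and 7.17 in GM12878, 7.28 and 7.68 in HEK293T, 3.00 and 3.04 in HFF1 and 5.79 and 5.87 in K562. Within their own lists these peaks stood at percentiles of 54.6 and 54.7 in HFF1 and 86.6 to 87.3 in GM12878. In 7 libraries the strongest summit lay 311 to 330 bp upstream of the start, within the window printed above that holds the serum response core. That core was in 0.286% to 0.467% of the summit windows of promoter peaks in the 8 libraries. The RefSeq promoter of FOS also held the CRE core TGACGT 64 bases before its start, as did that of FOSB 60 bases before its own. In HFF1 library 2 the only FOS peak had its summit 58 bp downstream of the first start, and in HFF1 library 1, K562 library 1 and both HEK293T libraries the stretch was split into an upstream peak and a peak over the start.

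FOSB, a close relative of FOS that pairs with JUN proteins, had its accessible stretches in different places in different lines. The stretch over its first start, chr19:45467557-45468360, had a peak in GM12878 (fold 4.36 and 4.41), HFF1 (3.84 and 4.34) and K562 (4.60 and 3.81) and none in either HEK293T library. A second stretch inside intron 1, chr19:45468970-45469988, lies next to later start sites and had a peak in GM12878 (4.96 and 4.75), HEK293T (7.14 and 5.27) and K562 (5.17 and 5.12) and none in either HFF1 library. HEK293T therefore had only the intronic stretch and HFF1 only the stretch over the first start, while GM12878 and K562 had both. A further stretch, chr19:45470160-45470362, had peaks only in K562, at folds of 2.30 and 2.34. The first stretch is the one that holds the CRE and the serum response core in the window printed above, 276 bp upstream of the start at its summit in HFF1 library 1. A CRE was present in 1.06% ± 0.0251 of HFF1 promoter peaks (SD, n = 2).

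**Figure D2:**
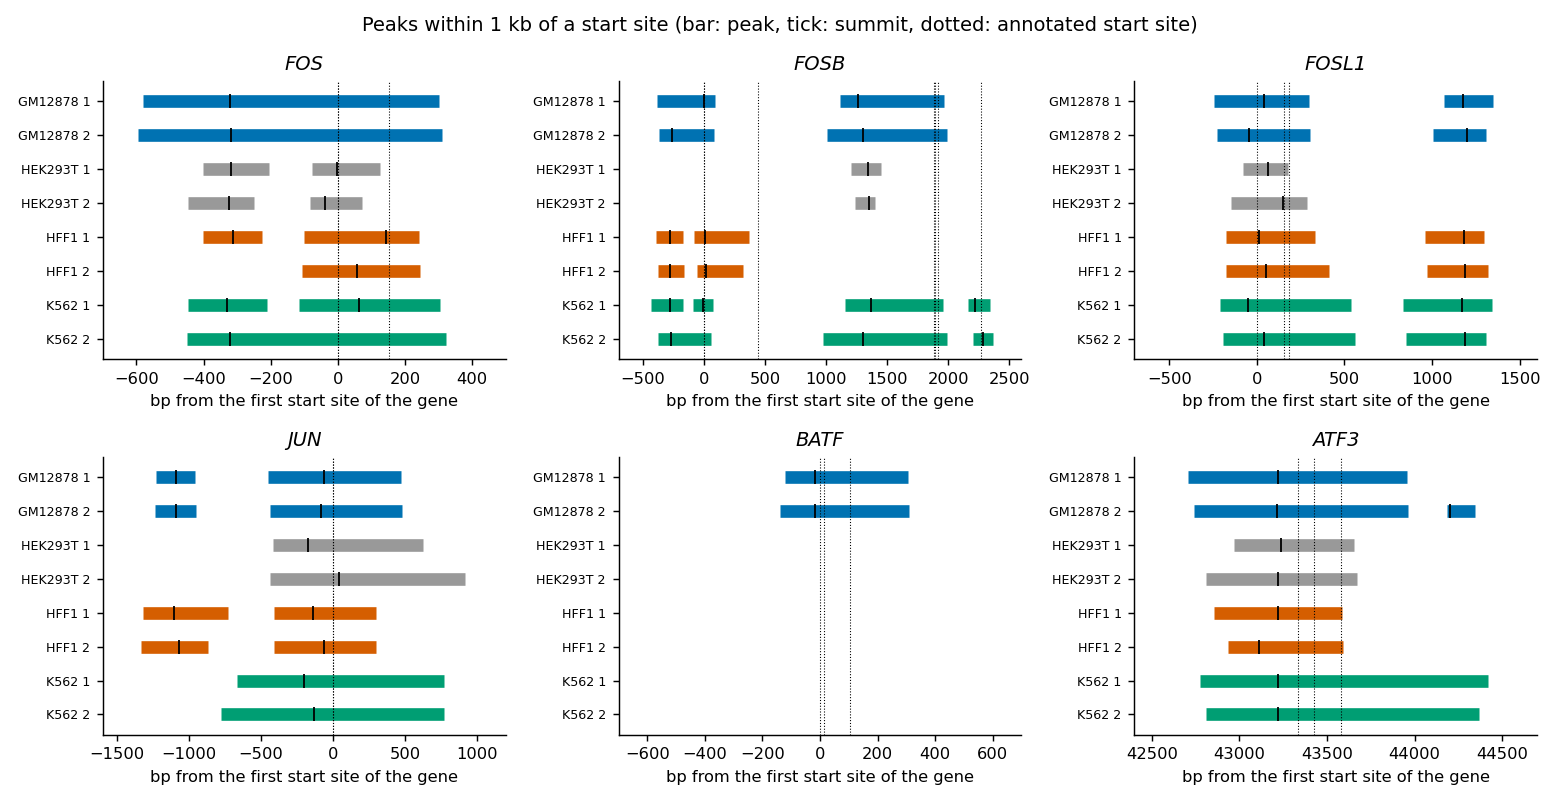
Promoter peaks of 6 AP-1 genes in each of the 8 libraries (rows), against distance in bp from the first start site in the direction of transcription. Bars are peaks, ticks are summits and dotted lines are annotated start sites. FOSB lacks the peak over its first start in HEK293T and the intronic peak in HFF1, FOSL1 lacks its downstream peak in HEK293T, and BATF has peaks in GM12878 only.

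FOSL1 encodes FRA1, a FOS-group protein without the strong activation domain of FOS that is linked to invasive and mesenchymal cells. Its main stretch, chr11:65900011-65900819, had folds of 9.07 and 9.55 in GM12878, 6.75 and 6.62 in HEK293T, 6.13 and 6.19 in HFF1 and 6.75 and 6.85 in K562. Within its own list the HEK293T peak stood at percentiles of 22.7 and 20.4, with pileups of 10 and 9 reads. In the other 6 lists the percentile was 85.8 to 95.0. A second stretch in intron 1, chr11:65899226-65899741, which held 1 AP-1 site, had peaks in GM12878 (fold 4.49 and 3.42), HFF1 (4.30 and 4.49) and K562 (4.74 and 4.43) and none in HEK293T. The main stretch also held 1 AP-1 site. Peaks missing from HEK293T here and at FOSB stand beside the lower depth of that line, whose part was not tested.

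FOSL2 encodes FRA2, the other FOS-group protein without that activation domain. Its main stretch, chr2:28392079-28393197, covered the RefSeq start and the AP-1 site printed above, which begins 4 bases after that start. The fold was 7.44 and 7.39 in GM12878, 9.17 and 9.07 in HEK293T, 4.52 and 4.77 in HFF1 and 7.73 and 7.84 in K562. Additional small peaks were found in 1 line each: 595 to 789 bp before the first start in HFF1 (2.93 and 3.00), and 905 to 1328 bp after it in K562 (3.08 and 3.01). The antisense gene FOSL2-AS1 starts within 1 kb, so peaks here cannot be assigned to FOSL2 alone.

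JUN, the partner shared by all FOS-group proteins, had folds of 6.44 and 6.84 in GM12878, 7.81 and 7.35 in HEK293T, 4.10 and 3.99 in HFF1 and 5.81 and 6.22 in K562. Its percentile was 97.3 and 96.0 in HEK293T, 89.8 to 92.2 in GM12878 and K562, and 75.1 and 71.4 in HFF1. The central peak covered TGACATCA in the promoter printed above, 67 bases before the RefSeq start, in all 8 libraries. JUN is known to act on its own promoter through sites of this form. A separate upstream peak, with summits 1070 to 1108 bp before the start, was present in both GM12878 libraries (fold 2.94 and 2.79) and both HFF1 libraries (3.69 and 3.60). Within the limit of 1 kb no separate upstream peak was found in HEK293T or K562. K562 library 1 had a further peak whose nearer end lay 1012 bp from the start (fold 2.4), just outside the limit. Its side of the start was not recorded, so whether the absence in K562 depends on the limit was not settled. The upstream peak of GM12878 library 1, 956 bp from the start, was the nearest inside it, and in K562 library 2 the central peak reached 781 bp upstream. The genes LINC01135 and ENSG00000290013 also start within 1 kb of JUN.

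JUNB, which is known to restrain JUN-driven proliferation in some settings, had a single stretch, chr19:12791279-12791909, with folds of 3.41 and 3.65 in GM12878, 8.28 and 4.86 in HEK293T, 3.07 and 3.51 in HFF1 and 4.25 and 4.64 in K562. The 2 HEK293T libraries lay far apart, at percentiles of 74.3 and 11.3 with pileups of 34 and 15 reads. JUND, the JUN protein present in most resting cells, had folds of 4.70 and 4.62 in GM12878, 6.30 and 5.06 in HEK293T, 4.66 and 4.65 in HFF1 and 5.25 and 5.44 in K562 over chr19:18281157-18282486. That stretch held the CRE printed above, 200 bases before the RefSeq start, and in HEK293T library 2 the CRE was within the summit window. A second JUND peak in its only exon, 862 to 1334 bp after the start, was found only in GM12878, at folds of 3.21 and 3.34. MIR3188 starts within 1 kb of JUND.

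BATF had folds of 6.17 and 5.67 in GM12878 at chr14:75522316-75522766, with summits 17 and 19 bp before its first start and percentiles of 63.1 and 61.1. Its pileups were 61 and 63 reads. The summit window printed above held no AP-1 site, CRE or serum response core and 1 RUNX site, a string present in 2.05% and 2.13% of the summit windows of GM12878 promoter peaks. BATF3, needed for cross-presenting dendritic cells in mice, had its strongest peak over chr1:212698879-212701328 in all 8 libraries, with folds of 6.74 and 6.73 in GM12878, 11.5 and 9.46 in HEK293T, 6.79 and 6.44 in HFF1 and 8.93 and 8.16 in K562. In 7 of the 8 libraries its strongest summit lay 420 to 436 bp downstream of the first start, in intron 1. In HFF1 library 1 it lay 1375 bp upstream instead, in a peak that reaches within 389 bp of that start. HFF1 library 1 also had a peak in intron 2 (fold 4.22), by a later start site, that HFF1 library 2 lacked.

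ATF3, a stress-induced factor that pairs with JUN proteins and can repress transcription, was accessible at an internal start site and not at its first. Its only stretch, chr1:212608042-212609754, lies 42708 to 44420 bp downstream of the first annotated start at position 212565334, which had no peak in any library. The strongest summit lay before exon 1 of the canonical transcript in all 8 libraries. The fold was 7.20 and 6.71 in GM12878, 10.9 and 10.4 in HEK293T, 7.40 and 6.80 in HFF1 and 6.16 and 6.13 in K562. Its percentile was 89.7 to 96.9 in all 8 lists. The 2 RefSeq promoters matched for ATF3 lie elsewhere, at the first start and further downstream, and neither overlapped a peak.

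With lists cut to 45000 peaks, 10 AP-1 genes kept a promoter call in GM12878, 8 in HEK293T, 7 in HFF1 and 9 in K562. The share of all protein-coding genes was not computed for the cut lists, so these counts cannot be set against a background. The genes lost were JUNB in HEK293T, whose peak ranked 46230 in library 2, and FOS and JUNB in HFF1. The FOS peak ranked 57819 and 54533 in HFF1, and the JUNB peak ranked 56238 in library 1. These 3 promoter calls therefore rested on the longer lists.

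Genes outside the family with the most similar pattern were found by the distance between percentiles of the strongest promoter peak over the 8 libraries, with 0 for no peak. The nearest were GSDMB and CCL4 to BATF (distances of 1.30 and 1.40 percentile points), ARL3 and SFXN2 to ATF3 (2.99 each), MEX3B and ATP1B1 to JUN (4.86 and 8.31) and RPL23A and ATP8B3 to FOSL2 (4.95 and 5.04). CCNF and PIAS4 were nearest to FOSL1 (9.04 and 13.0), HSPG2 and BCL6 to JUND (8.23 and 8.82) and HSD17B7 and ZC3H12A to BATF3 (8.75 and 8.95). No close match was found for FOS (TLE3 at 14.9 and CSMD3 at 15.0), FOSB (TMEM25 at 14.2 and SLC7A5 at 15.5) or JUNB (C9orf64 at 22.2 and DNAJC4 at 23.7).

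Peaks were also counted around the genes. Within 100 kb of the gene body, FOS had 22 and 18 peaks in GM12878, 7 and 6 in HEK293T, 34 and 31 in HFF1 and 18 and 16 in K562. HFF1 was highest and HEK293T lowest without overlap, and no other protein-coding gene lies within those 100 kb. FOSL2 showed the same order at its ends, with 11 and 10 peaks in GM12878, 3 and 5 in HEK293T, 23 and 24 in HFF1 and 13 and 11 in K562. JUN had 12 and 12 in GM12878, 7 and 8 in HEK293T, 19 and 21 in HFF1 and 14 and 12 in K562, and again HFF1 stood above the rest. ATF3 had 21 and 21, 9 and 8, 28 and 30, and 18 and 18 in the same order of lines.

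BATF departed from this pattern. It had 26 peaks in both GM12878 libraries, 5 in both HEK293T libraries, 16 and 17 in HFF1 and 12 and 14 in K562, so the line with the accessible BATF promoter also had the most peaks around it. At FOSL1 the counts were 24 and 24, 13 and 13, 28 and 25, and 22 and 20 in the order GM12878, HEK293T, HFF1 and K562. FOSB, JUNB, JUND and BATF3 had similar counts in GM12878, HFF1 and K562 and lower counts in HEK293T. FOSB had 36 to 42 peaks outside HEK293T and 17 and 18 in HEK293T, JUNB 31 to 38 against 23 and 22, JUND 27 to 33 against 13 and 13, and BATF3 20 to 25 against 9 and 8. FOSB, JUNB and JUND have 8, 14 and 9 other protein-coding genes inside these windows, so many of the peaks are their neighbours' promoters.

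The number of peaks within 100 kb was tested across the 4 lines for every gene with a peak (19856 genes), by an exact one-sided permutation test of the share of variance between lines over all 105 pairings of the 8 libraries, with Benjamini-Hochberg adjustment over all genes. It differed between lines at 6 of the 10 AP-1 genes, beside 64.0% of all genes tested, so the family's share lay near the background. FOSL1, BATF and ATF3 had an adjusted p of 0.0363, the smallest that any gene reached, and FOS, FOSL2 and JUN one of 0.0446. JUND (0.0661), BATF3 (0.0847), JUNB (0.0994) and FOSB (0.152) did not pass. HFF1 had the most peaks at 5 of the 6 genes that passed and GM12878 at BATF, and over all 12713 genes that passed HFF1 was highest at 53.9% and GM12878 at 32.9%. With equally long lists the order at FOSL1 turned, to a mean of 17.5 in GM12878 and 16 in HFF1, and those at FOS and ATF3 drew close. Differences between 2 named lines were not tested. At the limit of 100 kb, the nearest peak inside lay 99994 bp from BATF (HFF1 library 2, fold 6.72) and the nearest outside 100130 bp from FOSL1 (HFF1 library 1, fold 3.96).

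These calls did not outlast equally long lists. With 45000 peaks per library, no gene of the whole table passed after adjustment (9049 had an unadjusted p of at most 0.05), and the mean counts in the order GM12878, HEK293T, HFF1 and K562 became 11, 5.5, 11.5 and 8.5 at FOS, 5.5, 4, 8.5 and 7.5 at FOSL2, and 13.5, 3.5, 11 and 7 at BATF. In the same order they were 15.5, 7.5, 16 and 12.5 at ATF3, 4.5, 5.5, 9 and 8 at JUN, and 17.5, 12, 16 and 15.5 at FOSL1. At FOSB (20.5, 14.5, 18.5 and 31), JUNB (24, 16, 15 and 30) and JUND (16.5, 12.5, 14 and 22.5) K562 had the highest mean, and at BATF3 (15.5, 8, 12.5 and 13.5) GM12878 did. HEK293T stayed lowest at 8 of the 10 genes, the exceptions being JUN, where GM12878 had 4.5 against 5.5, and JUNB, where HFF1 had 15 against 16. With 50 kb in place of 100 kb no gene passed either (11689 unadjusted). When 1 library was left out at a time, BATF and ATF3 passed in all 8 fits. FOS failed without GM12878 library 1, HFF1 library 1 or any library of HEK293T or K562, and FOSL2 and JUN without HFF1 library 1, K562 library 1 or any library of GM12878 or HEK293T, at adjusted p of 0.0522 to 0.0559. FOSL1 failed without either GM12878 library or K562 library 2, at adjusted p of 0.0557 to 0.0654.

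**Figure D3:**
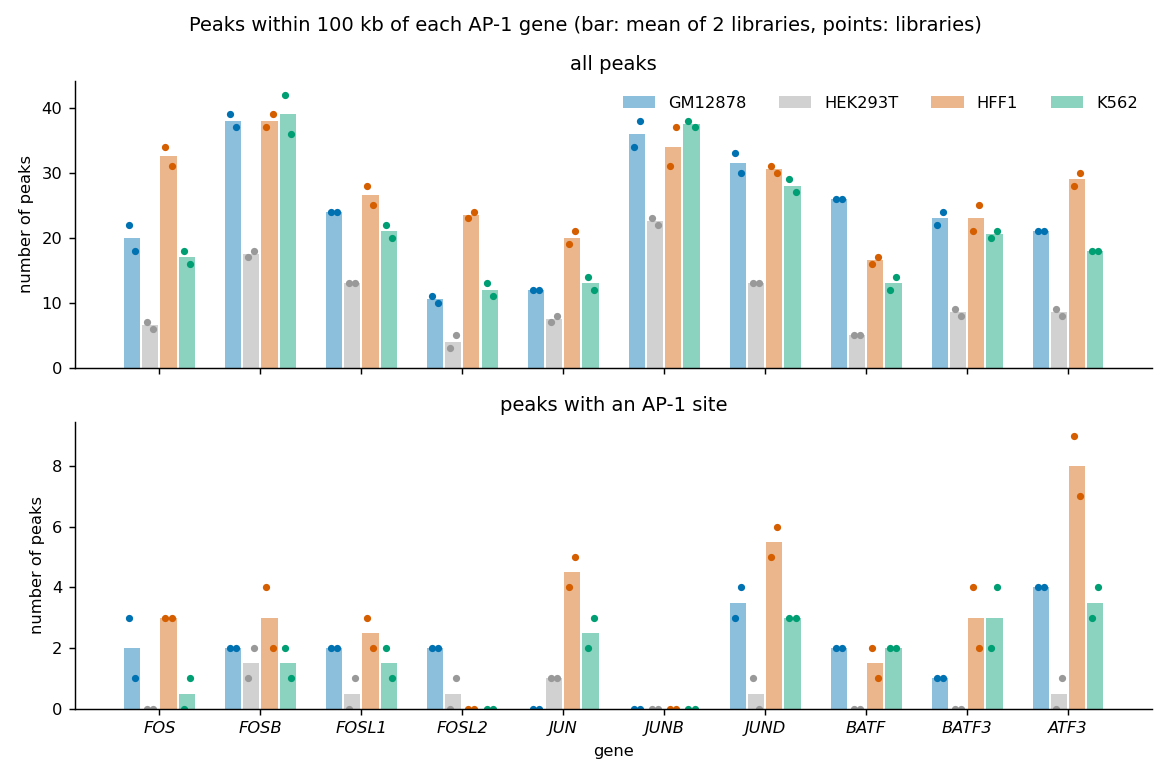
Number of peaks within 100 kb of each AP-1 gene (top) and of those with an AP-1 site in the summit window (bottom), by cell line. Bars are the mean of 2 libraries and points are the libraries. HEK293T has the fewest peaks at every gene, HFF1 the most at FOS, FOSL1, FOSL2, JUN and ATF3, and JUNB has no peak with an AP-1 site in any library.

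Few of these nearby peaks held an AP-1 site in the summit window, which is what was counted. ATF3 had the most in HFF1, with 9 and 7 such peaks, and had 4 and 4 in GM12878, 3 and 4 in K562 and 0 and 1 in HEK293T, beside a median over all genes of 2 in HFF1, 1 in GM12878 and K562 and 0 in HEK293T. Between 1.22% and 3.18% of all genes had at least as many in the HFF1 libraries. JUN had 4 and 5 in HFF1, 2 and 3 in K562, 1 and 1 in HEK293T and none in GM12878. JUND had 5 and 6 in HFF1, 3 and 4 in GM12878, 3 and 3 in K562 and 1 and 0 in HEK293T. JUNB had none in any of the 8 libraries despite its 22 to 38 peaks, and FOSL2 had none in HFF1 or K562 despite the many HFF1 peaks around it. The main FOSL2 promoter peak did hold an AP-1 site in the HFF1 and K562 libraries, but their summit windows did not cover it in full.

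Pooled over the 10 genes, 7.69% ± 0.191 of nearby peaks in GM12878 held an AP-1 site in the summit window (SD, n = 2), beside 7.23% ± 0.0443 of all GM12878 peaks. The share was 4.46% ± 2.10 beside 3.04% ± 0.0390 in HEK293T, 11.5% ± 1.59 beside 14.1% ± 0.0522 in HFF1 and 8.18% ± 1.04 beside 8.00% ± 0.197 in K562. These shares rested on 3 and 6 peaks with a site in HEK293T and on 32 of 254 and 27 of 261 in HFF1. The mean shares near the AP-1 genes followed the line-wide order, with K562 and GM12878 libraries overlapping, and the HFF1 share near them was below that of HFF1 as a whole. Over distal peaks only (farther than 1 kb from every protein-coding start), the share near the genes was 15.6% ± 2.03 in HFF1, beside 16.3% of all distal peaks of the line, 10.2% ± 1.04 beside 8.36% in GM12878 and 11.4% ± 1.73 beside 9.63% in K562 (SD, n = 2). In HEK293T it was 7.26% on average, from 2 of 40 and 4 of 42 peaks, beside 3.93%. A share this small is limited by its counts, and the differences from all peaks were not tested. Promoter peaks, which hold AP-1 sites less often in these lists, made up 35.2% to 60.4% of the nearby peaks and 20.3% to 34.8% of all peaks.

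Merging the peaks of the 8 libraries gave 398 regions near the AP-1 genes, of which 322 were called in both libraries of at least 1 line. Of these, 70 (21.7%) were called in all 4 lines, beside 11.6% of the called regions of the genome. A further 65 (20.2%) were found in HFF1 only, 44 (13.7%) in GM12878 only, 19 (5.90%) in K562 only and 0 in HEK293T only. Over the genome these shares were 28.9%, 20.0%, 8.58% and 2.43%, so each was smaller near the AP-1 genes. The difference was not tested. Promoter peaks made up a larger part of nearby peaks (35.2% to 60.4%) than of all peaks (20.3% to 34.8%) in every library, and their part in it was not tested either. A summit window with an AP-1 site was present in 12 of the 65 HFF1 regions (18.5%), 7 of the 44 GM12878 regions (15.9%) and 5 of the 19 K562 regions (26.3%). Over all such regions of the genome the shares were 21.7%, 10.2% and 11.5%. FOS had 17 of the HFF1-only regions and FOSL2 15, yet 1 and 0 of them held an AP-1 site, whereas 5 of the 9 HFF1-only regions at ATF3 did. BATF had 12 GM12878-only regions, of which 1 held a site. ATF3 and BATF3 are neighbours on chromosome 1 and share part of their windows, and 23 regions were counted at 2 genes.

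The strongest line-specific regions with an AP-1 site show what such elements look like, and the 2 of highest fold per line are printed for the lines that had any. Each is a summit window on the plus strand of GRCh38, with the AP-1 site in capitals. In GM12878 they were chr14:75210867-75211466, 67663 bp upstream of FOS (folds 15.5 and 14.9), and chr2:28325825-28326437 in an intron of BABAM2, 66285 bp upstream of FOSL2 (8.98 and 9.95). In HFF1 they were chr1:212545992-212546446, 19238 bp upstream of the first start of ATF3 (10.3 and 10.5), and chr1:212655913-212656401 between ATF3 and BATF3 (10.2 and 10.5). In K562 they were chr14:75442698-75443032 in an intron of JDP2, 79625 bp upstream of BATF (7.30 and 8.42), and chr1:212774677-212774920 in an intron of NSL1, 74981 bp upstream of BATF3 (7.01 and 6.22). HEK293T had none.
GM12878, upstream of FOS: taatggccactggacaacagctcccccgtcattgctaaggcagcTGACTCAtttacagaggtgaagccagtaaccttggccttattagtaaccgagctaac
GM12878, upstream of FOSL2: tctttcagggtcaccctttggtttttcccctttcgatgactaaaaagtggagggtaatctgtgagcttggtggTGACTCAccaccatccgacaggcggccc
HFF1, upstream of ATF3: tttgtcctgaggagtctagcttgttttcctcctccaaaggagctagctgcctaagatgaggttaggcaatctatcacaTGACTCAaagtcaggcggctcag
HFF1, between ATF3 and BATF3: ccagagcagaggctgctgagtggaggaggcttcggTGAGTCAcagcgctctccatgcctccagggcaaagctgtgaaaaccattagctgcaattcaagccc
K562, upstream of BATF: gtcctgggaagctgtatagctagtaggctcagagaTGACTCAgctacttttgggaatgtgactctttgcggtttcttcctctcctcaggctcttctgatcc
K562, upstream of BATF3: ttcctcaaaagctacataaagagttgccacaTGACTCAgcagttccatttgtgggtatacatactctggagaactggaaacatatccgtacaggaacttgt
The summit lay 3 bp from the centre of the site in the GM12878 region near FOS and 12 to 31 bp from it in the other 5. The K562 region near BATF3 carries the extended form in which TGC stands directly before TGAGTCA (here on the other strand), the form bound by NF-E2, BACH and small MAF proteins. The K562 region near BATF also held the TEAD site ACATTCC on the other strand, and the other 4 held none of the extended, TEAD, GATA, RUNX or IRF composite sites searched.

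Across the genome the lines differed widely in how far they used AP-1 sites. The summit window held an AP-1 site in 16.3% and 16.3% of distal peaks in HFF1, 9.72% and 9.55% in K562, 8.41% and 8.31% in GM12878 and 3.94% and 3.92% in HEK293T. The site read backwards, as a background, was in 2.31% ± 0.0332, 1.50% ± 0.0399, 1.97% ± 0.0285 and 1.37% ± 0.0140 in that order (SD, n = 2). The 4 lines did not overlap, and the share differed between them beyond the spread of the libraries (share of variance between lines 0.9999, exact one-sided permutation p of 0.00952, the smallest that all 105 pairings allow, 0.0254 after Benjamini-Hochberg adjustment over 8 site tests). The site read backwards passed the same exact permutation test (variance share 0.997, adjusted p 0.0190), so passing it is not particular to the AP-1 site. With equally long lists the mean AP-1 site shares were 20.9%, 10.2%, 8.63% and 3.74%, in the same order.

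Counted over the reference genome, 458327 AP-1 sites lie on the autosomes and X, and 30951 ± 1414 of them were inside a peak in HFF1, 15944 ± 121 in GM12878, 11751 ± 943 in K562 and 3643 ± 86.3 in HEK293T (SD, n = 2; exact permutation test as above, adjusted p 0.0254). Equally long lists gave 14275, 7944, 7556 and 3130. Of the sites inside peaks of both libraries, 64.1% in HFF1 were found in no other line, against 47.3% in GM12878, 29.4% in K562 and 10.0% in HEK293T. For the site read backwards these shares were 64.7%, 54.7%, 30.2% and 13.2%, at least as high in every line, so they are not particular to the AP-1 site. Peaks of all 4 lines held 1051 AP-1 sites, 3.85% to 39.1% of those called in a line, and the backward site 7.89% to 42.7%. Of 10516 CREs in the genome, the site of JUN-ATF pairs, 536 were inside peaks in all 4 lines, which was 54.4% to 82.6% of those called in a line. Distal CRE shares were 0.345% ± 0.0298 for K562, 0.228% ± 0.0360 for HEK293T, 0.214% ± 0.000661 for GM12878 and 0.195% ± 0.00979 for HFF1, and did not differ past the threshold (exact permutation test, adjusted p 0.0762). That call turned with the setting: the adjusted p was 0.0254 with equal lists, 0.0127 with windows of 100 bp to either side, and 0.0109 and 0.0305 without HEK293T library 1 or 2. The CRE read backwards was more frequent than the CRE in the distal peaks of every line (0.352% to 0.525%). It is also the commoner string in the genome, with 71584 sites against 10516, so it is not a matched background for the CRE.

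**Figure D4:**
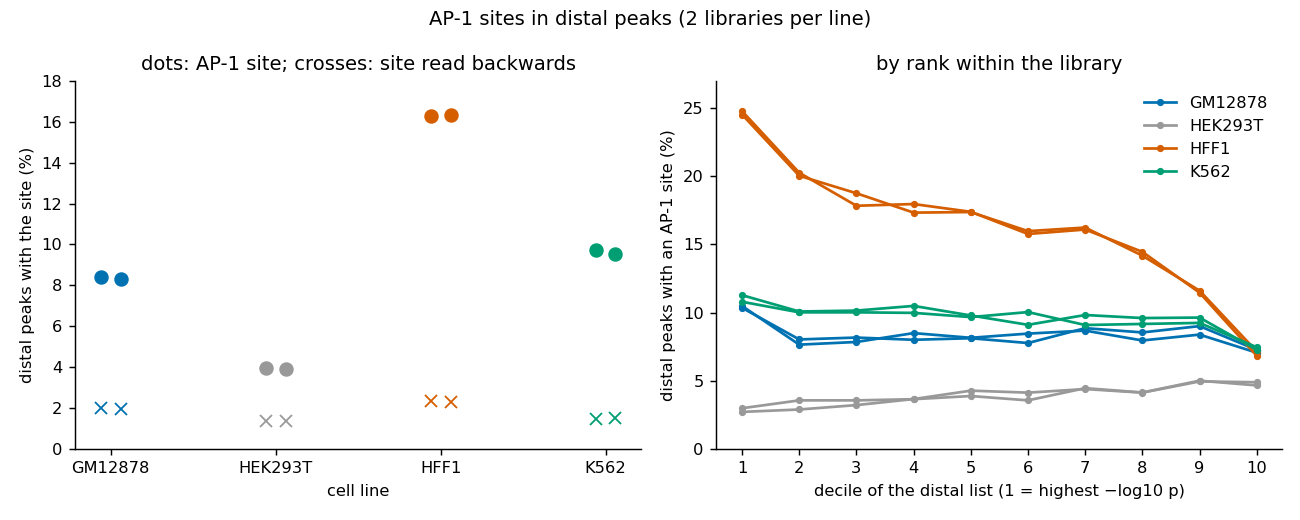
Percent of distal peaks with an AP-1 site (left, dots) or the site read backwards (left, crosses) in the 2 libraries of each line, and the percent with an AP-1 site by decile of the distal list ranked by −log10 p (right, 1 is the highest decile). HFF1 lies at 16.3% and falls from 24.7% in the highest decile to 6.99% in the last, while HEK293T lies at 3.9% and has its lowest share in the highest decile.

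AP-1 sites also sat at different ranks. In HFF1 they were in 24.7% ± 0.178 of the highest decile of distal peaks by −log10 p and in 6.99% ± 0.224 of the last (SD, n = 2). In K562 the highest decile held 11.3% and 10.8% in the 2 libraries and the last 7.36% ± 0.136, and in GM12878 the shares were 10.4% ± 0.0936 and 7.16% ± 0.146. HEK293T ran the other way, from 2.84% ± 0.190 to 4.77% ± 0.165. The median fold of distal peaks with a site was 7.31 against 6.30 without one in HFF1, and 7.46 against 7.92 in HEK293T. Distal regions called in 2 lines held a site most often, in 21.4% of 19795, beside 16.1% of 110596 called in 1 line, 14.7% of 10010 in 3 lines and 7.09% of 9531 in 4 lines. A region counted as holding a site if any summit window of its peaks did, so regions with more peaks had more windows searched.

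The form of the site and its neighbours differed by line as well. Among distal peaks with an AP-1 site, an IRF composite (TTTC, 4 bases, then the AP-1 site, or GAAA directly before it), the element read by BATF with IRF4 or IRF8, was present in 7.81% ± 0.0161 in GM12878, 3.48% ± 0.0150 in HFF1, 2.21% ± 0.0482 in K562 and 2.00% ± 0.281 in HEK293T (exact permutation test, adjusted p 0.0381). GM12878, the only line with an accessible BATF promoter, was highest in both libraries, and a link between the 2 was not tested. The composite contains the AP-1 site, so peaks without that site give no background for it. The RUNX site TGTGGTT accompanied 5.25% ± 0.0349 of these peaks in GM12878, 3.42% ± 0.137 in HFF1, 3.00% ± 0.231 in K562 and 2.15% ± 0.0362 in HEK293T (adjusted p 0.0254 by the same exact test). Distal GM12878 peaks without an AP-1 site held it about as often, in 5.77% ± 0.0124.

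The TEAD site ACATTCC, bound by the partners of YAP, accompanied 2.64% ± 0.307 of AP-1 site peaks in HEK293T, 2.57% ± 0.0169 in HFF1, 1.26% ± 0.165 in K562 and 0.542% ± 0.0564 in GM12878 (exact permutation test, adjusted p 0.0457). HEK293T and HFF1 overlapped. In HEK293T the TEAD share was higher beside an AP-1 site than without one (1.51% ± 0.0448), and in HFF1 lower (3.04% ± 0.0726 without). The extended NF-E2 form, TGC directly before TGAGTCA, made up 9.85% ± 0.0377 of AP-1 site peaks in K562 and 3.62% to 4.17% in the other lines on average, and missed the threshold at an adjusted p of 0.0508 by the exact test. It passed without HEK293T library 1 (0.0109) or 2 (0.0327) and with windows of 100 bp to either side (0.0476). The GATA site AGATAA accompanied 10.5% ± 0.0562 of AP-1 site peaks in K562 and 4.42% to 4.49% elsewhere (adjusted p 0.114 by the exact test). It was as frequent in K562 peaks without an AP-1 site (10.7% ± 0.0772), and it passed with peaks of −log10 q of at least 5 (0.0254) and with windows of 100 bp to either side (0.0327). For both the extended form and GATA, K562 stood far from 3 lines that lay close together, and a pairing that mixes those 3 lines changes the variance share little.

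**Figure D5:**
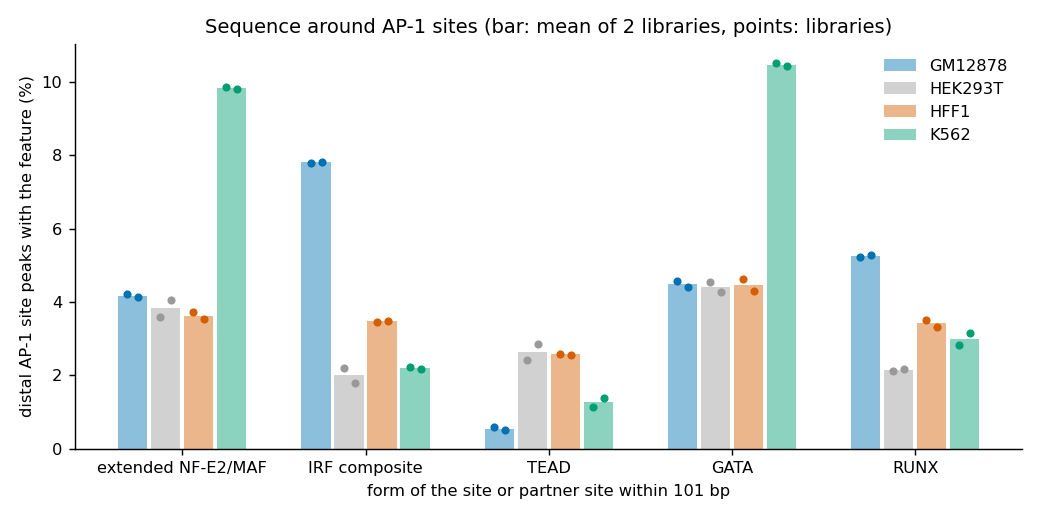
Percent of distal AP-1 site peaks that carry the extended NF-E2/MAF form, an IRF composite, or a TEAD, GATA or RUNX site in the summit window, by cell line. Bars are the mean of 2 libraries and points are the libraries. K562 is highest for the extended form (9.85%) and GATA (10.5%), GM12878 for the IRF composite (7.81%) and RUNX (5.25%).

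Among other genes of the pathway, promoters of partners and regulators were accessible in nearly all libraries. Of 18 leucine zipper partners, which include the CREB, ATF, MAF, NF-E2 and BACH genes, 17 had a promoter peak in all 8 libraries, and MAF, a large MAF protein, had none in GM12878. All 13 upstream genes, the MAP kinases and their activating kinases, SRF, the ELK factors and EGR1, had one in all 8 libraries. Of 16 known AP-1 target genes, 6 had one in all 8 libraries, beside 59.7% of all genes. In both libraries of a line, 16 had one in HFF1 (76.2% of all genes), 12 in GM12878 (71.9%), 12 in K562 (70.4%) and 7 in HEK293T (67.8%), so the GM12878 and K562 counts lay near the background, and no test was run on these lists. MMP3, a matrix protease, and the cytokine genes IL1B and CCL2 had promoter peaks in HFF1 only, and CXCL8, which encodes interleukin 8, in HFF1 and K562 only. PLAU, of the plasminogen system, and the cytokine genes IL11 and LIF had them in every line but HEK293T, CD44 had one in only 1 HEK293T library, and HMOX1, a haem-degrading enzyme, lacked one in K562. HFF1, with the longest lists, had the most of these promoters and HEK293T, with the shortest, the fewest, as for AP-1 site use, while the count of AP-1 genes with a promoter peak was 9 in both of these lines.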

How the data were processed

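Bulk ATAC-seq was deposited as 1 peak list per library, and the 8 human libraries (GM12878, HEK293T, HFF1 and K562, 2 each) were used. The 2 mouse embryonic stem cell libraries were not analysed here. Per the submitters' processing notes, cutadapt 3.2, Bowtie2 2.4.2, Picard and MACS2 2.2.7.1 were used, with builds hg38 and mm10; their options are not given in the sources used here. The authors gave each peak a position, a summit, a fold (the ratio of summit to local background in that library), −log10 p and −log10 q values and a score. The deposited fold and −log10 values served to rank, filter and describe peaks inside 1 list at a time, with no order of the lines read from them, and the deposited score, a cut form of −log10 q, was not used.

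Group and replicate came from the sample labels. Solving fold = (pileup + 1)/(background + 1) together with the Poisson tail behind −log10 p gave a whole-number pileup and a background for 100% of peaks within a tolerance of 0.01. The 1st percentile of that background is the background level, and PCR reads are not independent molecules. Gene models were GENCODE release 44, with the prefix chr removed from chromosome names to match the peak lists. No peak used reached past the end of its chromosome in the reference. A promoter peak overlaps 1 kb on either side of a start site, and sites were searched in GRCh38 from 50 bp before to 50 bp after the summit. Peaks of all libraries that overlap by at least 1 bp were merged into regions, and a line was said to have a region when both its libraries had a peak there.

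The tests were exact one-sided permutation tests of eta squared, the variance share lying between lines, over the 105 pairings of 8 libraries, and their p cannot go below 0.00952. Over all genes an adjusted p of 0.05 can be reached only where at least 19.0% of genes pass together. Benjamini-Hochberg adjustment covered 8 site tests, or all genes for peaks within 100 kb. The unadjusted permutation test was checked on simulated counts with no depth difference between lines. The adjustment and unequal depth were not simulated. Python 3.11.15, numpy 2.4.6, pandas 2.3.3, scipy 1.17.1, pysam 0.24.0 and matplotlib 3.10.9 were used.

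The members and gene lists were chosen with earlier results of these data known, so no count over them is independent support. All 10 AP-1 genes were named, with their strongest promoter peak by −log10 p in each library. Also named were the 2 line-specific regions per line with an AP-1 site and the highest lower fold, the 2 genes of most similar promoter pattern per AP-1 gene, and the members of the other lists that differ between lines. Some list members are counted but not reported here by name. Alternatives were equal lists of 45000 peaks, −log10 q of at least 5, other windows, the motifs read backwards, each library left out, and a replicate block.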

Additional observations from a re-analysis of the deposited data

How the results depend on the processing

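The promoter peaks of the AP-1 genes stayed at 10, 9, 9 and 9 of 10 (GM12878, HEK293T, HFF1, K562) under every alternative run except equal lists of 45000 peaks (10, 8, 7 and 9). The share of all genes was not computed for those equal lists. The count of genes whose peaks within 100 kb differed between lines was 12713, became 0 with equal lists, with 50 kb and with the replicate block (9049, 11689 and 6869 at an unadjusted p of at most 0.05), and lay between 3867 and 11378 when 1 library was left out. The replicate numbers did not pair the libraries, since deviations of same-numbered libraries correlated between −0.0167 and 0.0133 over 19962 genes. With the replicate block, whose 24 pairings allow no p under 0.0417, the share of variance between lines was 0.9999 for the AP-1 share, 0.998 for genome AP-1 sites, 0.999 for the IRF composite and 0.993 for RUNX (adjusted p 0.0833 each) and 0.987 for TEAD (0.125), so no site test passed.

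The CRE share, not past the threshold, passed with equal lists (variance share 0.908) and with windows of 100 bp to either side of the summit (0.940). It ranged from 0.894 to 0.967 with 1 library left out. The CRE read backwards, which is a different string, also passed (0.972), so passing is not particular to the CRE. The extended NF-E2 form passed with those wider windows (0.997; left-out range 0.996 to 0.9996), and GATA with −log10 q of at least 5 (0.998) and the wider windows (0.994). Near the AP-1 genes, the AP-1 share in the wider windows was 9.67%, 7.43%, 15.2% and 11.1% in GM12878, HEK293T, HFF1 and K562, and 0.440%, 0.990%, 2.13% and 1.70% with the site read backwards; it was 8.73% in GM12878 with 50 kb and 14.6% in HFF1 with equal lists. The cause of these shifts was not tested. The median peak had 16 reads in HEK293T and 30 to 35 in the other lines, so counting error is relatively larger in HEK293T, and the part of depth in the results was not tested.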
